A study of Mus musculus with 70 samples.

Results

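The interactions described here are the promoter-centered chromatin contacts that were called in every tissue and stage of a study of mouse fetal development. An interaction is a pair of 10-kb bins of the same chromosome, and it counted as shared where the same pair of bins was in each of the 12 pooled call sets. The rule left 2918 of 248620 called interactions (1.17%), whereas 120101 were called in a single tissue-stage, 125601 in 2 to 11, and 4548 in 11. The members were chosen by their calls, that is by the count of read pairs, the ratio of observed to expected read pairs and the false discovery rate in each set, so these values are given as a description. Counts of members past a limma threshold are printed for differences between tissues and between stages, which the rule did not compare, and are read only against the whole table. Every member had to be called in every set, so such fits hold no member that went uncalled in any of them, whether below the calling threshold or not tested there.

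H3K4me3 PLAC-seq, which ligates neighbouring chromatin and then immunoprecipitates a histone mark of active and poised promoters, was performed on unsorted C57BL/6N tissues. At embryonic day 12.5 (E12.5) the neural tissues were FB (forebrain), MB (midbrain), HB (hindbrain) and NT (neural tube) and the others LM (limb), CF (craniofacial prominence) and LV (liver). FB was also taken daily from E13.5 to E16.5 and at birth (P0), and each tissue-stage had 2 biological replicates, giving 24 libraries. CTCF ChIP-seq came from the same 12 tissue-stages, with 23 CTCF and 23 input libraries (FB P0 had 1 CTCF library, and those of LV and FB E14.5 were technical replicates). All groups shared the strain and no treatment is named, so they differ by tissue and stage.

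CTCF binds DNA through zinc fingers, at a motif that has a direction. Cohesin extrudes chromatin loops and is held at bound CTCF, most often where the motifs at both loop ends point towards each other, which is called the convergent arrangement. Promoters contact distant enhancers and other promoters within such loops, and Polycomb proteins hold some silent developmental genes together as well.

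The CTCF sites at the ends of some of the strongest shared interactions are printed here, since the direction of the motif at each end can be read from them. Sequences are from GRCm38, the assembly called mm10, read 5′ to 3′ on the strand of the motif, with the 19 bases matched to the CTCF matrix in capitals and 5 bases on each side. The matrix was estimated from these peaks, its most frequent letters are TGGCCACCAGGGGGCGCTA, both strands were searched, and between 88.9% and 95.2% of the autosomal peaks of a list held a match. The first site of each pair lay on the + strand and the second on the - strand, so every pair shown is convergent. The pairs shown do not stand for all of the strongest. With motifs of a single direction required at each end, those shown were convergent in 9 to 12 tissue-stages. Of strong pairs not shown, that of Tbx3 was so in 12, Mn1 in 8, Fgfr2 in 7, Phlda1 in 2 and Igfbp5 in 1. The pair of Irx3 and Irx5 was so in 0. Other motifs in the same bins are not printed. Each site was in a peak in all 12 lists.
Ubash3b side, chr9:41228870-41228888, intergenic: cggctCTGCCACTGGAGGTCACTGttgta
Sorl1 side, chr9:41950813-41950831, intergenic: ccgcgCCCACGGCAGGTGGCAGCAttggc
Sox6 far end, chr7:115216940-115216958, intergenic: atctaTGGACAGTAGGTGGCAGTAggtcg
Sox6 promoter bin, chr7:116033099-116033117, Sox6 intron: ctttgTACCCACAAGAGGGCAACAtcttg
Emx2 promoter bin, chr19:59454379-59454397, intergenic: atcccTCGCCACTAGGCGCCGCTGcacac
Emx2 far end, chr19:60144531-60144549, intergenic: cacagCAGCCACTAGATGGCGCATgagaa
Sgk1 far end, chr10:21465516-21465534, intergenic: atagaTCGCCACTAGGTGACGCTGtttct
Sgk1 promoter bin, chr10:21996114-21996132, Sgk1 exon: agcccCGGCCACCAGGGGTCACCCttacc
1600014C23Rik promoter bin, chr17:45731349-45731367, intergenic: agaaaTGACCACTAGGTGTCAGCCtcagc
Vegfa promoter bin, chr17:46032886-46032904, intergenic: taatgTAGTCACTAGGGGGCGCTCggcca
Neto2 promoter bin, chr8:85700605-85700623, Neto2 intron: ggcctGGCCCGCAAGGGGGCGCTGcccgc
Abcc12 promoter bin, chr8:86536600-86536618, Abcc12 intron: gaagaAGGCCACCAGATGGCACCAtaatc
The fold enrichment over input at these sites ranged over the lists from 9.57 to 50.9 on the Ubash3b side and from 22.6 to 71.8 on the Sorl1 side. At Sox6 it was 23.7 to 47.5 at the far end and 21.7 to 39.8 in the promoter bin, and at Emx2 18.7 to 71.9 in the promoter bin. Every one of these sites was thus bound in each tissue-stage. The lists were not scaled to each other, so levels are not compared between tissue-stages.

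LV stood apart before any result of the shared interactions is read. It had 21945 pooled calls, whereas the other 11 tissue-stages had 51264 to 79677, and 3260 of the 4548 interactions called in 11 tissue-stages (71.7%) were missing only in LV. Each of the other tissue-stages was the only one missing for 61 to 305. The shared interactions therefore made up 13.3% of the LV calls and between 3.66% (FB P0) and 5.69% (FB E12.5) of the others, and without LV the same rule leaves 6178. Markers were checked by the number of pooled interactions at their transcription start sites (TSSs). Prrx1, a mesenchymal homeobox gene, had 50 in LM, 51 in CF and at most 3 in the other tissues at E12.5. The hepatocyte genes Alb, Afp, Apoa1 and Ttr had 0 or 1 in LV, so the interactions gave no positive check of that tissue. Tbx5, a limb gene, had 7 in LM and 14 in HB.

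A shared pooled call was usually also found in the single replicates. The pooled sets were made from these same libraries, so finding the calls again is no separate evidence. The members were called in a median of 22 of the 24 libraries, 2356 (80.7%) in at least 20, and 843 (28.9%) in all 24. The least reproduced was the pair of bins with Mboat7 and Tsen34 at 1 end and Dnaaf3 at the other, which was called in only 3 libraries. The share of members called in a library ran from 66.5% (LV) to 98.7% (FB P0), and in the replicates of a tissue-stage the log2 ratio of members called in both had a Pearson's r of 0.759 to 0.859 across interactions, which are not independent. Most members were not isolated: 2084 (71.4%) touched another member, and the 2918 pairs of bins formed 1469 separate groups, the largest with 21 pairs.

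**Figure D1:**
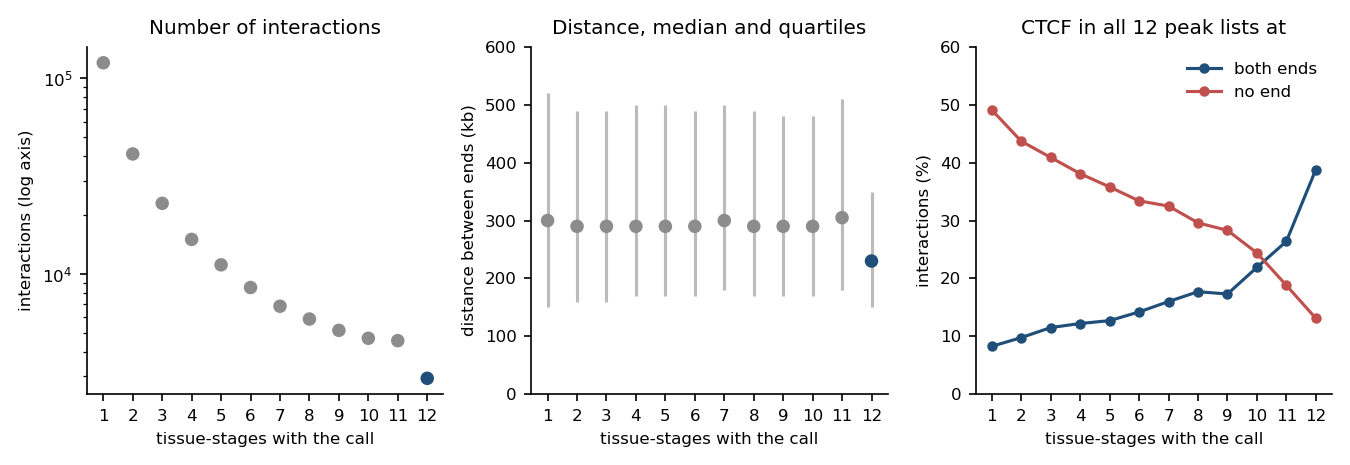
Interactions by the number of tissue-stages in which they were called (x axis, 1 to 12): their number on a log axis, the median distance between the ends in kb with quartiles, and the percentage with a CTCF site in all 12 peak lists at both ends or at no end. The 2918 shared interactions (12 on the x axis, blue in the first plots) were the fewest, had the shortest median distance (230 kb) and held such a CTCF site at both ends in 38.8%.

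The shared interactions were shorter than the others, with a median of 230 kb between their ends (quartiles 150 and 350 kb), against 290 kb for the other interactions and 305 kb for those called in 11. The calls of LV, which every member had to be among, had a median of 170 kb. The share of all interactions that were shared was highest at 110 to 200 kb (1.82%) and lowest at 510 to 1000 kb (0.574%). Still, 372 members spanned at least 500 kb and 3 spanned 1000 kb, the limit of the calls. The longest joined the promoter of Rgma, which encodes a repulsive axon guidance molecule, to a bin near Mctp2 at 1000 kb, with ratios of observed to expected read pairs from 7.27 in LV to 19.1 in FB P0 (median 15). The promoter of Gpc6, a glypican, and a bin near Dct were also 1000 kb apart, with ratios from 4.47 in MB to 10.7 in FB E15.5. A protein-coding TSS lay between the ends of 58.8% of the members, and of 67.6% of the other interactions. The shared share varied from 0.859% on chromosome 14 and 0.882% on chromosome 3 to 1.58% on chromosome 8.

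Most shared interactions joined an annotated promoter to a bin without one. Here a promoter bin is any bin with the TSS of at least 1 protein-coding gene. Of the members, 597 (20.5%) joined promoter bins, 1962 (67.2%) had a single promoter bin and 359 (12.3%) had none, whereas 16.3% of the other interactions joined promoter bins and 27.6% had none. The members used 3640 different bins, of which 1567 were promoter bins. Among the members with 1 promoter bin, the gene nearest to the far end was the partner gene in 5.3%, against 8.94% of the other interactions of that class, and 46.0% and 49.3% of the far ends lay in a gene body. Genes with a start site in a shared bin had a median of 20 CpG dinucleotides in the 300 bases around the start site (250 before and 50 after it), against 16 for the other genes in an interaction, and a median GC content of 60.7% against 58.0%.

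The genes at the shared ends included many developmental regulators. Of 15807 autosomal protein-coding genes with a TSS in any interaction, 1555 (9.84%) had one in a shared bin, and each list below is read against that share. Neighbouring genes often shared a bin, so the genes of a cluster are not separate observations. The lists were chosen with earlier results of these data known, some share genes, and their shares were not tested. The share of all genes is not matched for the number of interactions of a gene. Homeotic genes, which give positional identity along the body axis, had the largest share of the lists, with 27 of 39 Hox genes (69.2%). They included 8 HoxA, 3 HoxB, 9 HoxC and 7 HoxD genes. The strongest interaction of Hoxd13, at 600 kb, had ratios from 7.85 to 18.8 (median 13), and that of Hoxd10 and Hoxd9, at 900 kb, from 5.21 to 15.5 (median 11.8). In the HoxC cluster the strongest pair of Hoxc4 and Hoxc5 spanned 150 kb, with a median of 5.72. All partners of HoxC genes lay at 150 to 250 kb, and those of HoxD genes at 250 to 900 kb.

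Patterning transcription factors had 23 of 67 genes at shared ends (34.3%), and signalling ligands and antagonists 9 of 29 (31.0%). Sox11, which acts in neural progenitors and neurons, was joined over 810 kb, with ratios from 5.79 to 27.7 (median 16.9). En1, a midbrain and limb patterning gene, was joined over 570 kb, with ratios from 5.81 to 23.8 (median 16.9). Tbx2 had 6 shared interactions, and Meis2, a cofactor of Hox proteins, had 8. Of the signalling genes, Shh was joined to a bin at 810 kb, with ratios from 4.61 to 16.8 (median 9.52), and Wnt7b had 4 interactions, the strongest at 320 kb with a median of 13.5. Fgf8, an organizer signal, had 6 shared interactions at 160 to 520 kb. The rule required these contacts to be called in every tissue-stage, and the expression of the genes was not analysed here.

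Forkhead genes had 13 of 38 members (34.2%), led by Foxo1 with 13 shared interactions, Foxo3 with 10 and Foxc2 with 8, of which the strongest of Foxc2 spanned 400 kb with ratios from 9.62 to 20.9. Polycomb and trithorax genes had 7 of 24 (29.2%), among them Bmi1 with 6 interactions and Jarid2, whose pair at 870 kb had ratios from 3.93 to 18.9. Replication-dependent histone genes had 24 of 62 (38.7%). They lie in clusters, so few bins held many of them. The pair of bins joining Hist1h2ad to Hist1h2bb had ratios from 2.31 to 4.18 (median 3.04), while the shared pair of Hist1h2ag, at 330 kb, had 3.51 to 7.77 (median 4.8). Ribosomal protein genes had 18 of 88 (20.5%, a list matched by name that includes Rps19bp1, which encodes a binding protein of a ribosomal subunit), and those named housekeeping 4 of 33 (12.1%).

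Lists of single lineages had shares on both sides of that of all genes. Of the neuronal differentiation genes 1 of 36 was at a shared end (2.78%), Neurog2. Erythroid and haematopoietic genes had 5 of 20 (25%), among them Runx1 with 6 interactions at 570 to 760 kb, Gata2, Lmo2 and Lyl1, which encode transcription regulators of blood formation. Hepatocyte genes had 4 of 20 (20.0%), among them Apoa1, Apoa2 and Foxa1. Mesenchyme, cartilage and muscle genes had 3 of 23 (13%), Sox6, Pdgfra and Osr2. Near or below the share of all genes were cell cycle genes with 3 of 27 (11.1%), including Ccnd2 with 20 interactions, splicing genes with 2 of 21 (9.52%), solute carriers with 23 of 305 (7.54%), genes named Zfp with 18 of 279 (6.45%), CTCF and cohesin genes with 1 of 16 (6.25%), clustered protocadherins with 3 of 51 (5.88%) and keratins with 1 of 38 (2.63%). None of 74 olfactory receptor genes, nor the single host gene of small nucleolar RNAs matched by name, was at a shared end.

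**Figure D2:**
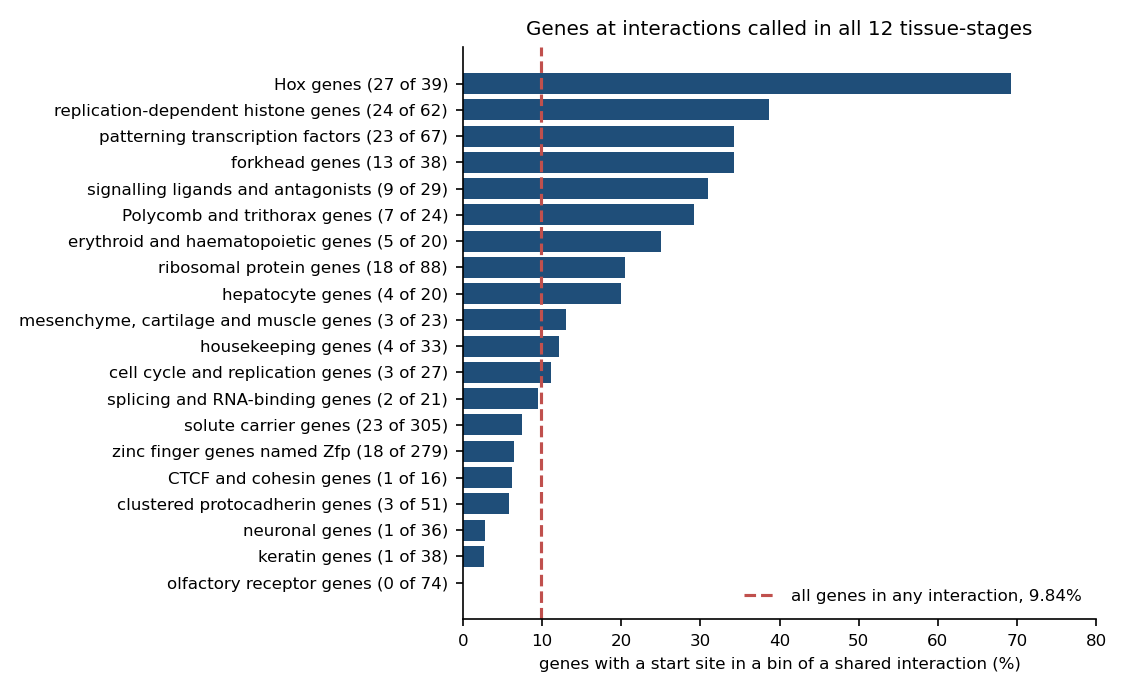
Percentage of the genes of each list with a TSS in any interaction that had one in a bin of a shared interaction (bars, x axis in %, counts in the labels), with the share of all genes, 9.84%, as a dashed line. Hox genes reached 69.2%, and olfactory receptor genes 0.

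Some promoters had many shared partners. Of the bins used, 2606 (71.6%) had a single shared partner and 141 had 5 or more. The bin with a start site of Sox6, an HMG-box transcription factor of cartilage, neurons and red blood cells, and of 1110004F10Rik, had the most, 25, at distances of 290 to 820 kb. It was followed by Gadd45g, a growth arrest and stress gene, with 22 partners at 170 to 410 kb, and Irf2bp2, a transcriptional corepressor, with 19 at 70 to 350 kb. Ier5l, an immediate early response gene, Enc1, which encodes an actin-binding kelch protein, and Vegfa, the main angiogenic growth factor, had 17 each in 1 bin. Dusp4, a MAP kinase phosphatase gene, had 14, and the transcription factor gene Foxo1, the corepressor gene Zfp703 and Zfp36l1, whose product promotes mRNA decay, had 13 each.

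All shared partners of each of these 10 bins lay on the same side of it. Those of Sox6, Vegfa, Dusp4, Zfp703 and Zfp36l1 were at lower coordinates, and those of Gadd45g, Irf2bp2, Ier5l, Enc1 and Foxo1 at higher ones. Partners of 1 bin are often adjacent, so they are not separate observations of the direction. The motif in the Gadd45g bin, in a peak in all 12 lists at fold enrichments from 24.1 to 58.9, lay on the + strand and that in the Vegfa bin, printed above, on the - strand, so both pointed at the partners. That of the Foxo1 bin also pointed at its partners, as shown here for the 3 bins.
Gadd45g, chr13:51845658-51845676, + strand, intergenic: taggtCGGCCGGTAGGCGGCGCCCtggga
Foxo1, chr3:52262581-52262599, + strand, intergenic: ctcaaTGACCAGAAGGTGGCAGCGgatcc
Zfp36l1, chr12:80110466-80110484, + strand, coding exon: agcccCCGCCAGCAGGGGTGCCCActgcc
The Zfp36l1 motif, in a peak in only 7 lists at fold enrichments from 3.46 to 7.41, pointed away from the partners. The Enc1 and Irf2bp2 bins also held motifs on the - strand with their partners at higher coordinates. In all, the site found in the most lists pointed at the partners in 7 of the 10 bins and away from them in 3. Each bin held 2 to 8 motif sites, so other motifs of the same bin can point the other way.

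CTCF, which had no part in choosing the members, was found at the shared interactions far more often than at the other calls of the same tissue-stage. Both ends held a CTCF peak with a motif in 53.7% ± 4.05 of the members (SD, n = 12 tissue-stages) and in 26.0% ± 3.13 of the other interactions. The difference of 27.6 percentage points had the same direction in 12 of 12 tissue-stages, between 18.2 (LV) and 29.6 (two-sided exact sign-flip permutation test, p = 0.000488, the smallest that 12 differences can give). Neither end held CTCF in 5.37% ± 1.69 of the members and 19.7% ± 2.91 of the others, a difference of -14.4 points (exact sign-flip permutation test, p = 0.000488). The same members entered every tissue-stage, so the 12 differences are not independent of each other and the p counts tissue-stages, not loci. In all, 8 CTCF measures were tested, each with the same p of 0.000488, which adjustment over the 8 leaves as it is.

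The motifs at the ends were also more often convergent. Where the peaks of each end had motifs of a single direction, 70.1% ± 2.28 of the members were convergent (SD, n = 12), against 48.5% ± 2.67 of the other interactions, and 3.43% and 8.23% were divergent. The convergent share was higher by 21.5 points in 12 of 12 tissue-stages (exact sign-flip permutation test, p = 0.000488). The strongest peak of a bound end had a median log2 fold enrichment over input of 4.40 ± 0.254 for the members and 3.86 ± 0.269 for the others, a difference of 0.545 that was positive in all 12 tissue-stages (exact sign-flip permutation test, p = 0.000488). Of the bound bins, 83.7% ± 3.57 of those of members were bound in all 12 lists, against 70.9% ± 4.85 (difference 12.8 points, 12 of 12 tissue-stages, exact sign-flip permutation test, p = 0.000488). The members thus differed in how often they were bound, in the direction of the motifs, in the strength of the peaks and in their constancy.

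**Figure D3:**
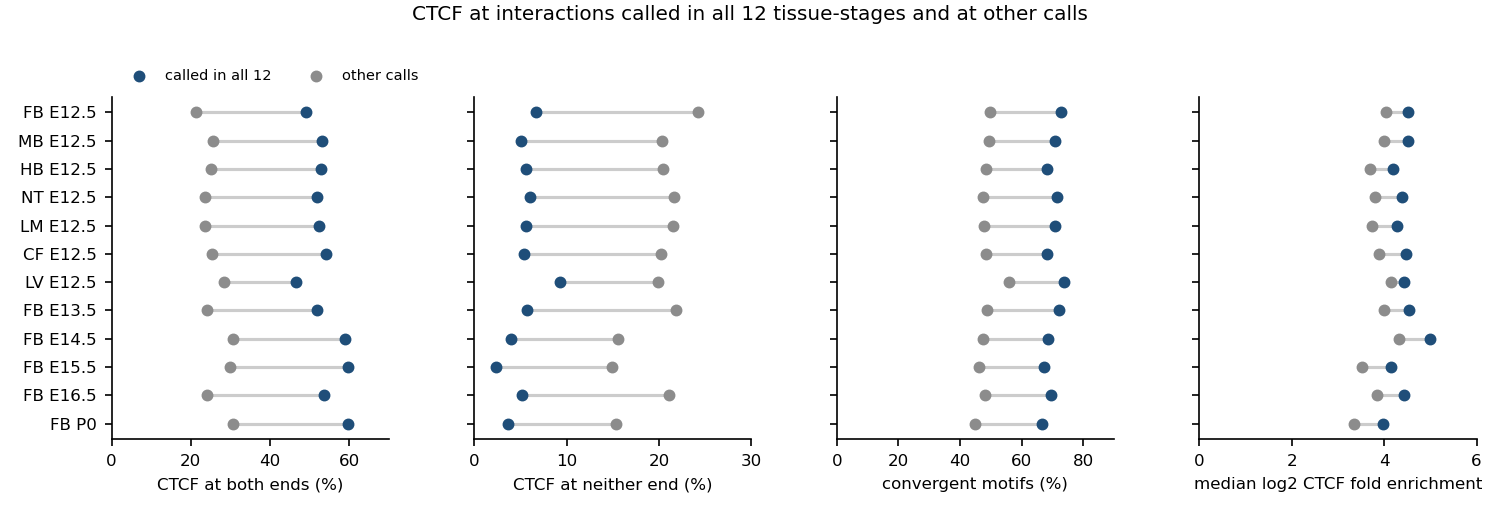
CTCF at the shared interactions (blue) and at the other calls (grey) of each of the 12 tissue-stages (rows): percentage with CTCF at both ends, at neither end, with convergent motifs, and median log2 fold enrichment over input of the strongest peak of bound ends. In every row the shared interactions were higher in the plots of both ends, convergent motifs and fold enrichment and lower in that of neither end, and LV had the smallest difference for both ends (18.2 percentage points).

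The differences were smaller, but of the same direction, against the interactions called in 11 tissue-stages, a comparison added after the data were seen. Both ends held CTCF in 41.9% of those, 11.8 points fewer, and 61.7% were convergent, 8.38 points fewer (exact sign-flip permutation tests, each p = 0.000488). The log2 fold enrichment differed by 0.0869 (exact sign-flip permutation test, p = 0.000977). Among interactions of 100 to 300 kb only, CTCF at both ends differed by 26.9 points, and among those with 1 promoter bin by 26.9. Over distance, CTCF was at both ends of 61.3% of the members at 20 to 100 kb and 49.0% at 510 to 1000 kb, and of 30.2% and 21.6% of the other interactions, as averages over the tissue-stages. Across the numbers of tissue-stages with the call, CTCF in all 12 lists at both ends rose from 8.26% for interactions called once to 26.4% for those called in 11 and 38.8% for the members. Of all bins of members, 56.2% were bound by CTCF in every list, against 16.5% of the bins of other interactions.

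CTCF was not found at every shared interaction. CTCF in all 12 lists marked both ends of 1133 members (38.8%), a single end of 1404 (48.1%) and no end of 381 (13.1%). Only 221 (7.57%) were convergent in all 12 tissue-stages, a measure that needs motifs of a single direction at each end, which 942 members had in FB E12.5. The median of the members' mean ratio was 4.97 with 2 such ends, 4.58 with 1 and 4.07 with none. No CTCF peak with a motif was at either end in any list for 28 members (0.96%), with a median distance of 230 kb and a median of their mean ratio of 4.26.

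Developmental genes were among these 28. The strongest joined the promoter of Isl1, a LIM homeobox gene of motor neurons and the heart, to a bin near Parp8 at 400 kb, with ratios from 7.69 in LM to 13.5 in MB (median 10.8) and calls in 23 of 24 libraries. CTCF was nevertheless close by, since the bin next to that of Isl1, which was joined to the same far bin, held it in all 12 lists at fold enrichments from 4.35 to 30.1. Foxf2, a forkhead gene of mesenchyme, was joined over 550 kb (median 8.88), and Shox2, a limb and heart gene, over 570 kb (median 7.0). The imprinted cell cycle inhibitor gene Cdkn1c was joined to a bin near Kcnq1 at 290 kb, with ratios from 3.51 to 8.7 (median 6.23). A pair of bins in Meis1, 130 kb apart, had a median of 4.43, and in the histone cluster of chromosome 13 the bin of Hist1h2ad and that of Hist1h2ab had a median of 3.21. Of the 28, 9 had no promoter bin, among them 4 pairs near Btn1a1 at 50 to 70 kb with medians of 2.49 to 3.25.

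The members were present everywhere by the rule, and their level differed between tissue-stages. Over all members the median ratio of observed to expected read pairs was 3.76 in LV, 4.42 in FB E12.5, 4.61 in LM, 5.08 in NT and 5.22 in FB P0, and the other calls had medians of 2.95 to 3.6. The read pairs of a member were between 7 and 1368, with a median of 27 in LV and 41 to 51 elsewhere. The lowest ratio of a member was in LV for 33.4% of them, and the highest in FB P0 for 20.6% and in NT for 14.1%. LV thus had the lowest ratios, the fewest read pairs and the shortest calls together, and the part of the read pairs and distance in its ratios was not tested. From its lowest to its highest tissue a member's ratio differed by a median of 1.97-fold over the 7 tissues at E12.5 and 1.72-fold over the 6 FB stages.

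Part of this was replicate error. For the 903 members called in all 14 libraries of E12.5, the median SD between replicates was 0.249 on the log2 scale and that between tissue means 0.237, with an estimated component of 0.175 between tissues once replicate error was taken off. For the 1832 members called in all 12 FB libraries these were 0.244, 0.200 and 0.120, so the estimated component was smaller between FB stages than between tissues. These estimates rest on different sets of members, and the tissues include LV. Over all members the median SD of the centered pooled log2 ratio was 0.323 for the tissues and 0.285 for the FB stages. As a description across 2918 interactions, which overlap and share distance, the log2 ratios of neural tissues at E12.5 had a mean Pearson's r of 0.762 with each other, 0.699 with LM and CF, and those of LV 0.626 with the other tissues. Neighbouring FB stages had 0.797 and FB E12.5 with FB P0 0.697.

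Interactions just outside lacked the call in 1 tissue-stage. That can mean a value below the threshold or no H3K4me3 peak of that tissue at an end, and which applied was not tested. Over the 11 other tissue-stages, the interactions missing only in LV had medians of 4.42 to 5.47, as high as the 4.42 to 5.22 of the members, but spanned a median of 360 kb and had 29 to 36 read pairs, against 41 to 51. The 1288 interactions missing in 1 tissue-stage other than LV had medians of 3.39 to 3.93 over 200 kb.

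The strongest members had ratios far above the median of all. A pair of bins without a protein-coding TSS, 63 kb from Ubash3b and 20 kb from Sorl1 and 730 kb apart, had the highest geometric mean (21.8), with ratios from 8.56 in LV to 28.9 in FB E15.5 (median 24) and 17 to 135 read pairs. The Sox6 promoter bin and its farthest partner, 820 kb away (chr7:115210001-115220000 and chr7:116030001-116040000), followed with 21.7, from 8.38 in LV to 31.4 in FB P0. Emx2, a homeobox gene of cortical patterning, was joined over 690 kb to a bin near Fam204a, from 8.41 in LV to 29.3 in FB P0 (median 23.9). These 3 pairs were called in all 24 libraries, had CTCF in all 12 lists at both ends, and were lowest in LV.

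The kinase gene Sgk1 was highest in LM (27.6), as was the receptor gene Fgfr2 (29.0), while Tbx3, a T-box gene of limb and other organs, was highest in NT (27.0) and had 12.6 in FB E13.5. Vegfa and 1600014C23Rik, 300 kb apart, had 132 to 375 read pairs, the most of the 10, and ratios from 10.1 in LV to 24.1 in FB P0. Phlda1, the transcription coregulator gene Mn1 and Igfbp5, which encodes a binding protein of insulin-like growth factors, completed the 10, at 420, 740 and 950 kb. Each of the 10 was lowest in LV, where the ratios lay between 6.56 and 10.8. The highest was FB P0 for 4 of them (Sox6, Emx2, Vegfa and Igfbp5).

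**Figure D4:**
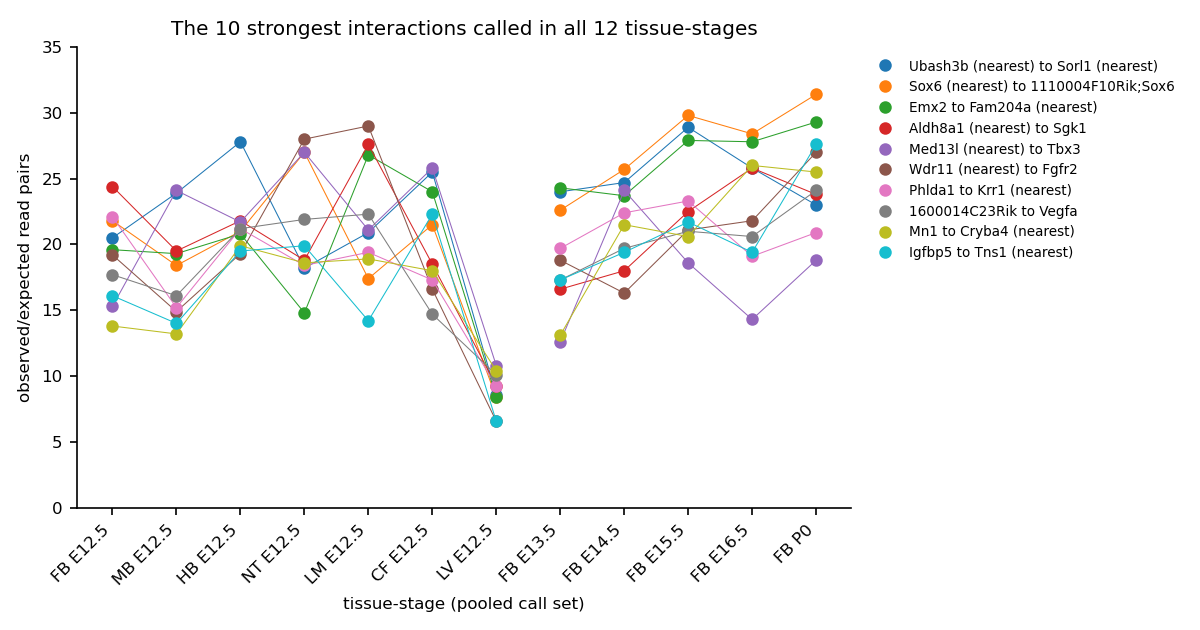
Ratio of observed to expected read pairs (y axis) of the 10 strongest shared interactions in each pooled call set (x axis, E12.5 tissues on the left, later FB stages on the right), with 1 color per interaction. All 10 fell to between 6.56 and 10.8 in LV and lay at 12.6 or more in every other set.

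Of the interactions joining promoter bins, the strongest after Vegfa was that of Irx3 and Irx5, neighbouring homeobox genes 550 kb apart, with ratios from 7.71 in LV to 23.3 in HB (median 14.8) and CTCF at the Irx3 bin in only 3 lists, at fold enrichments of 3.86 to 4.44. Neto2, an auxiliary subunit gene of kainate receptors, and Abcc12, an ABC transporter gene, were joined by bins 830 kb apart, with convergent motifs in all 12 tissue-stages and ratios from 4.6 in LV to 19.8 in FB E15.5.

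Neural tissues (FB, MB, HB, NT) were compared with LM, CF and LV at E12.5 to find members whose level followed lineage. With 1 pooled value per tissue, limma on the centered log2 ratio called 0 of the 2918 members at an adjusted p under 0.05 and 1 of the 3711 interactions with a value in all 7 tissues (0.0269%). An unadjusted p under 0.05 was reached by 306 members (10.5%), beside 11% of the whole table. In simulated data this pooled fit recovered 59% of planted log2 differences of 1 and 97% of those of 2. With each library as a sample, 38 of the 903 members with a value in all 14 libraries were called (4.21%). Of these, 24 were higher and 14 lower in neural tissues. Of the 996 interactions in that table, 47 were called (4.72%), with 2.81% higher and 1.91% lower. Members made up most of both tables, so these shares had to lie close and do not compare members with other interactions. Libraries of a tissue are not independent samples of neural or non-neural tissue, so these calls rest on fewer tissues than libraries. Without LV, 37 were called. The pairs below were chosen after their values were seen, as the largest differences per direction in the fit of libraries, and none passed with pooled values, so their values are a description with no test.

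Irx1 and Irx2, homeobox genes of neural patterning 660 kb apart, had ratios from 12.4 to 22.1 in the 8 neural libraries (median 17.3) and 4.26 to 14.6 in the 6 non-neural ones (median 8.36). The fitted difference over libraries was 0.87 ± 0.20 on the log2 scale (SE), and the groups overlapped through CF, at 12.7 and 14.6. The pair of Wnt7a, a Wnt ligand, and a bin near Fbln2, 130 kb apart, had 7.3 to 10.6 in neural libraries. The others had 2.82 to 7.01, with no overlap (0.71 ± 0.16). Aatf, a transcription cofactor gene, had 7.02 to 11.2 against 3.39 to 6.43 in the libraries, also without overlap (0.75 ± 0.15). In the pooled calls, however, LM had 8.52 at the Aatf pair, within the neural range of 7.35 to 10.3, so the pooled ratio was above that of both LM libraries. Irx3 with a bin beside Irx5 had medians of 15.8 and 7.28. Here too the groups overlapped through CF, whose libraries had 9.18 and 15.9 against 12.0 to 17.9 in the neural ones.

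Pairs at Snai1, Hes1, Hic1 and Lhx2 were among those with the largest differences in the other direction. Snai1, a regulator of epithelial to mesenchymal transition, and a bin near Ube2v1, 60 kb away, had 2.5 to 3.9 in neural libraries. In LM they had 9.13 and 7.33, in CF 5.48 and 4.92 and in LV 3.05 and 2.97, so LV lay within the neural range (-0.84 ± 0.16). Hes1, a target of Notch signalling, and a bin near Cpn2 had medians of 3.48 in neural and 5.47 in other libraries (-0.71 ± 0.15), with 1 LV library, at 3.01, in the neural range of 2.38 to 4.56. Hic1, a transcriptional repressor gene, and Smg6 had 8.78 and 8.94 in LM, 7.89 and 7.17 in CF, 3.41 and 5.23 in FB and 3.32 and 4.62 in MB. NT, at 6.24 and 6.65, was above LV, at 6.0 and 5.89, and HB had 5.66 and 5.86, so this pair did not separate the neural tissues from the others. The Lhx2 pair at 410 kb, whose gene patterns forebrain and limb, had 2.96 to 6.0 in neural libraries (highest in FB) and 5.06 to 6.46 in the others, and in the pooled calls FB (6.25) was above CF (5.84) and LV (4.1).

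FB was followed over 6 stages from E12.5 to P0, with the slope of the centered log2 ratio per stage step. With pooled values, limma called 0 of the 2918 members and 1 of the 12252 interactions with a value at all 6 stages (0.00816%), and 291 members (9.97%) had an unadjusted p under 0.05, beside 10.8% of the table. In simulated data this pooled fit recovered 1% of planted log2 changes of 1 from E12.5 to P0, and 58% of changes of 2. The 0 calls therefore do not show that levels were constant. With each library as a sample, 70 of 1832 members were called (3.82%, beside 4.98% of that table), 36 rising and 34 falling, where 2.68% and 2.3% of the table rose and fell. Without FB P0 8 members were called and without FB E12.5 6, whereas leaving out 1 of the 4 stages between them gave 54 to 78. The pairs below were again chosen after their values were seen, and none passed with pooled values, so they are described with no test.

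The Neto2 and Abcc12 bins at 890 kb went from 6.49 and 6.15 in the E12.5 libraries through 12.4 and 7.41 at E13.5, 15.5 and 14.6 at E14.5, 20.0 and 17.2 at E15.5 and 19.1 and 22.8 at E16.5 to 27.0 and 21.5 at P0. These bins are not those of the pair 830 kb apart, and CTCF was in 0 lists at the Neto2 bin and in 12 at the Abcc12 bin. The fitted slope over libraries was 0.33 ± 0.04 per stage on the log2 scale (SE). In the other tissues at E12.5 the pooled ratio was between 4.41 in LV and 21.2 in NT, so the FB level at E12.5 (8.07) was not the level of all neural tissues. Dusp4 and a bin near Saraf went from 13.1 and 12.3 to 34.2 and 31.9 (0.21 ± 0.04), and Sox11 from 10.6 and 10.2 to 24 and 28.9 (0.20 ± 0.04). The pair of the homeobox gene Barx2 had 5.2 and 5.46 at E12.5 and 16.4 and 16.9 at P0 (0.23 ± 0.05), and that of Nkx6-1, also a homeobox gene, 5.23 and 6.11 and then 19 and 13.1 (0.22 ± 0.05). The pooled ratio of the Barx2 pair was 3.7 at E12.5, below both libraries, and 21.9 at P0, above both.

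Other pairs had slopes below 0. Klf3, a transcriptional repressor gene, and a bin near Tbc1d1 had 9.19 and 8.95 at E12.5 and 3.49 and 7.06 at P0 (slope -0.24 ± 0.05). The pooled ratio of the Klf3 pair was 7.06 at E12.5, below both libraries, and 11.7 at E13.5. Prdm16, which maintains neural progenitors, went from 5.69 and 5.67 to 2.67 and 2.52 (-0.21 ± 0.05), and Sox1, a marker of neural progenitors, from 4.33 and 5.38 to 2.73 and 2.41 (-0.19 ± 0.04). The Prdm16 libraries had 3.4 and 4.42 at E14.5 and 4.82 and 4.91 at E16.5, so the fall of that pair was not steady. Zfp36l1 went from 8.18 and 8.53 to 4.57 and 4.67. A pair of bins of Emx2 and its far end went from 12.3 and 14.7 to 9.84 and 7.21 (-0.22 ± 0.05), with CTCF in 11 lists at the promoter bin and in none at the far bin. It lies 1 bin along from the strongest Emx2 pair at both ends, which held CTCF in every list and whose pooled ratio was 19.6 at E12.5 and 29.3 at P0. The values of 1 pair of bins are therefore not those of the whole locus.

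**Figure D5:**
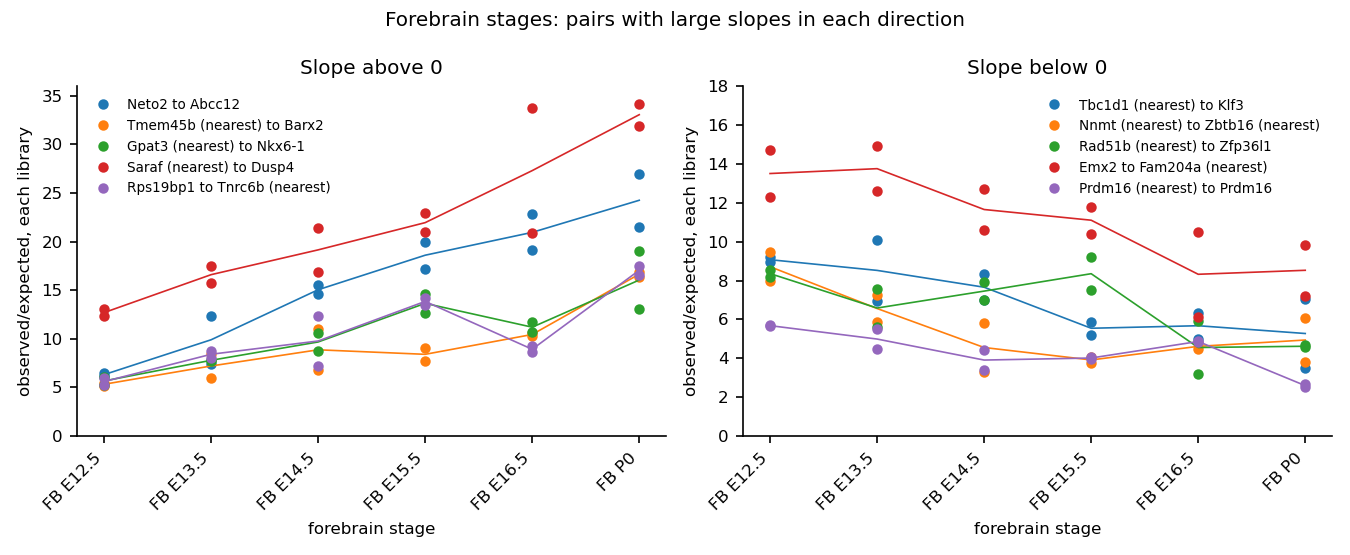
Ratio of observed to expected read pairs in each FB library (points, 2 per stage, lines through their means) for pairs among those with the largest slopes in each direction, over stages E12.5 to P0. Neto2 with Abcc12 went from 6.49 and 6.15 to 27.0 and 21.5, and Prdm16 from 5.69 and 5.67 to 2.67 and 2.52.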

How the data were processed

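The authors mapped PLAC-seq reads to mm10 and called interactions with MAPS between 10-kb bins of the 19 autosomes, at an FDR under 0.01 and a ratio of at least 2, from 20 to 1000 kb, for pairs with an H3K4me3 peak of that tissue at an end. For each called pair the authors deposited a count of read pairs, the value expected by their model and an FDR, which is a corrected p-value, and the ratio of count to expected was computed here. Pairs that were not called have no value. The pooled sets were made by the authors from both replicates, downsampled per chromosome to equal read pairs (733788 to 2238935 read pairs lay in the calls). The deposited CTCF lists give replicated peaks with the fold enrichment over input from the authors' MACS2 run. The authors' tools, as named in the submitters' processing notes, include BWA, SAMtools, Juicer and MACS2.

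Tables were handled in Python 3.11.15 with pandas 2.3.3 and numpy 2.4.6, and models were fitted in R 4.3.3 with limma 3.58.1 with its trend option, on log2 ratios centered on each set's median, with Benjamini-Hochberg adjustment over the whole table. Genes, start sites and sequences were from GRCm38 with GENCODE annotation. Motifs were found with a matrix of 19 positions estimated from 5000 peaks at 0.0001 per position, and the steps were tested on simulated data. Members and lists were chosen with earlier results of these data known. Named are the 10 strongest pairs, the 10 bins with the most partners, the 5 longest pairs, the 5 strongest joining promoter bins, listed genes in shared bins, and, per limma comparison, the largest differences past the threshold. As none passed, those of the fit of libraries were named after their values were seen. Pairs within 1 bin of a named one were skipped. Replicate numbers did not pair the libraries (r from -0.0689 to 0.0591 over 21 pairs of tissues, and -0.0459 to 0.135 over 15 pairs of FB stages). Alternatives covered peak lists, thresholds, distance, centering, counts, libraries and leaving out each tissue-stage. Intervals of counts are not given, since a ratio also depends on the fitted expectation. Some genes are not reported here. Inputs, contact maps and gene expression were not analysed here.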

Additional observations from a re-analysis of the deposited data

Results flagged for a closer look

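In groups of 6 or 7 tissue-stages, a value was flagged where its gap to the nearest other exceeded Dixon's 95% critical value. Of 62 groups checked, 7 were flagged, and chance flags about 1 in 20. In 6 of the 7 the value was that of LV. The median count of read pairs of the shared interactions was 27.0 in LV and 41.0 to 51.0 in the other tissues at E12.5. The shared interactions were 13.3% of the LV calls and 4.08% to 5.69% of the others. LV was the only tissue-stage without the call for 3260 interactions, and the other tissues at E12.5 for 61 to 305. LV held the lowest ratio of 33.4% of the shared interactions, and the others of 3.77% to 9.73%. In LV 9.25% of the shared interactions had CTCF at neither end, against 5.11% to 6.68%. The ratio of the Neto2 and Abcc12 bins 830 kb apart was 4.6 in LV and 10.5 to 14.9 elsewhere at E12.5. Among the FB stages, P0 held the highest ratio of 20.6% of the shared interactions, and the others of 4.49% to 8.74%.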

How the results depend on the processing

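The CTCF differences kept their direction and their side of 0.05 in 104 of 104 alternatives. Those that only left out tissue-stages had to keep both, since the differences of all tissue-stages had the same direction. The ranges on leaving out 1 tissue-stage were 27.5 to 28.5 points for both ends, -14.7 to -14.1 for neither and 21.3 to 21.8 for convergent motifs. They were 0.532 to 0.569 for log2 fold enrichment and 12.5 to 13 for constant sites. The number of shared interactions was 18876 when each end could lie 1 bin away, 6178 without LV, and 890 when the call was required in all 24 libraries. Leaving out 1 tissue-stage gave 2979 to 6178, the highest without LV. For neural against non-neural tissues, 0 members became 2 without centering, 43 with log2 counts (37 higher, 6 lower), 9 with replicate calls, 5 with at least 20 read pairs, 38 with libraries as samples, 37 with libraries but without LV, and 0 to 6 on leaving out 1 tissue (6 without FB E12.5, 1 without CF). For FB stages, 0 became 7 without centering, all rising, 71 with log2 counts (29 rising, 42 falling), 24 with replicate calls (23 rising), 70 with libraries, and with libraries but without 1 stage 6 (no E12.5), 8 (no P0), 78 (no E16.5), 68 (no E14.5), 59 (no E15.5) and 54 (no E13.5), and 0 to 0 on leaving out 1 stage. The fits of libraries without LV or 1 FB stage were chosen after seeing the data. The replicate block gave 32 in place of 38 calls and 70 in place of 70, where the replicate numbers are only numbers. Without centering, the median neural difference was 0.105 over the table and 0.138 over the members (log2). The cause of these differences was not tested. All 32 pairs with the largest differences kept their direction and lost their call with pooled values. The pooled values come from the same libraries, so the kept direction is no separate evidence. Each tissue-stage has 1 pooled value, and low counts limit the long pairs, some with 7 read pairs in LV.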

Other observations

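Several genes outside the 10 bins with the most partners also had many shared interactions, counted over all bins with a start site of the gene and named here after their values were seen. Ccnd2, a cyclin gene that drives entry into S phase, had 20, at 160 to 310 kb, and its strongest, at 300 kb, had ratios from 3.66 to 11.2 (median 7.99). Tsc22d1, a leucine zipper gene, had 19, and the strongest, at 500 kb, had ratios from 7.52 to 16.7. Jun, an AP-1 transcription factor gene, had 12, of which the strongest spanned 820 kb with ratios from 6.32 to 31.9 (median 16.5) and 13 to 112 read pairs. Irs2, an adaptor of insulin receptor signalling, had 11, and the kinesin genes Kif26a and Kif26b had 11 each on different chromosomes, with medians of 14.5 and 11.1 for their strongest. The strongest interactions of these 6 genes were called in 23 or 24 of the 24 libraries and had CTCF in all 12 lists at the promoter bin.

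Members of the gene lists with values not given above include Nog, Pdgfra and Osr2. Nog, an inhibitor of bone morphogenetic proteins, had 1 at 140 kb with ratios from 3.23 to 7.7 (median 5.25), and Pdgfra, a growth factor receptor gene of mesenchyme and glial progenitors, had 6, the strongest at 720 kb with ratios from 5.99 to 20.8 (median 10.7). Osr2, a transcription factor gene of palate and limb, had 2, the stronger at 850 kb with ratios from 7.64 to 17.7.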
